A study of Mus musculus with 12 samples.

Results

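The voltage-gated sodium channel genes of sensory neurons were examined in mouse dorsal root ganglia after spinal cord injury. The set holds 8 genes, chosen by name: Scn9a, Scn10a and Scn11a (the nociceptor forms), Scn1a and Scn8a (the large-neuron forms), and the beta subunits Scn2b, Scn3b and Scn4b. All 8 were found by Ensembl identifier among the 13178 genes listed for the virus experiment and the 21650 genes listed for the sugar experiment. All 8 also passed the filter on low values, which kept a gene where its 6 libraries in an experiment averaged 1 FPKM or more. In the virus experiment all 13178 listed genes passed it, so it removed none there. FPKM (fragments per kilobase, scaled to the output of the library) is a level per length, so different genes can be set side by side.

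The tissue was sciatic dorsal root ganglion neurons of spinal levels L4-6 from C57BL/6J mice aged 8 weeks, and every group, controls included, had a spinal cord injury 3 days (72 hours) before collection. In the virus experiment an adeno-associated virus was delivered through the sciatic nerve for 4 weeks, carrying green fluorescent protein (AAV-GFP) or the pentose phosphate enzyme transketolase (AAV-TKT). In the sugar experiment the mice received vehicle (Vehicle) or 10% ribose (Ribose). Each of the 4 groups had 3 libraries of polyadenylated RNA. The sources name neither the promoter of the virus nor its share of infected neurons, and they do not say whether a library is 1 animal or a pool. The p-values below therefore measure only the spread between these libraries, which may be technical. Treated and control libraries were compared within each experiment to see whether the transcript levels of these channels differed.

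Voltage-gated sodium channels open when the membrane is depolarised and carry the inward current of the action potential. Each channel is 1 large alpha subunit, made of 4 homologous domains around a central pore, joined by beta subunits that set its gating and its place in the membrane. In dorsal root ganglia, Nav1.7 (Scn9a), Nav1.8 (Scn10a) and Nav1.9 (Scn11a) are known from small pain-sensing neurons, while Nav1.1 (Scn1a) and Nav1.6 (Scn8a) are known from large myelinated touch and position neurons. Nav1.8 and Nav1.9 are resistant to tetrodotoxin, the pufferfish toxin that plugs the outer pore of the other forms.

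Alpha subunits differ at 1 codon of the pore loop of domain I, which sets tetrodotoxin sensitivity. The 33 coding bases around that codon are shown for Scn9a, Scn10a, Scn11a and Scn8a because they separate resistant from sensitive channels whose levels follow, with the codon in capitals and the rest in lower case, 5′ to 3′ along the coding strand. They were read from GENCODE M21 transcripts on GRCm38.
Scn9a: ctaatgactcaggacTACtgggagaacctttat
Scn10a: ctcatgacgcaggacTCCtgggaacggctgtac
Scn11a: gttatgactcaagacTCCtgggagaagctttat
Scn8a: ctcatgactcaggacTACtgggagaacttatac
The codon encodes tyrosine in Scn9a and Scn8a, an aromatic residue known from toxin-sensitive channels. It encodes serine in both Scn10a and Scn11a. Over the whole stretch, Scn9a and Scn8a share 29 of the 33 bases, Scn9a and Scn11a share 28 of 33, and Scn10a and Scn11a share 24 of 33. The stretch lies in exon 9 of 27 at chr2:66548986-66549018 (minus strand) for Scn9a, in exon 9 of 28 at chr9:119666372-119666404 (minus) for Scn10a, and in exon 9 of 27 at chr9:119805665-119805697 (minus) for Scn11a. For Scn8a it lies in exon 9 of 27 at chr15:100971623-100971655 (plus).

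Among the beta subunits, beta4 (Scn4b) is known for its short intracellular tail, which can enter and block an open sodium channel and is tied to resurgent current. A coding stretch of this tail is shown because Scn4b had the smallest p of the 8 genes below. The capitals mark 60 coding bases of the tail, 20 codons of which 7 encode lysine, and the stretch does not reach a stop codon. It was read across exons 4 and 5 of 5 within chr9:45149340-45150426 on the plus strand of GRCm38, with the intron left out.
Scn4b: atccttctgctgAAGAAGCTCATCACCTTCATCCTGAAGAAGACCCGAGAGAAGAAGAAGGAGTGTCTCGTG

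The genes sit in clusters on GRCm38. Scn1a (ENSMUSG00000064329, chr2:66270778-66440840, minus strand) and Scn9a (ENSMUSG00000075316, chr2:66480080-66634962, minus) lie side by side on chromosome 2. Scn10a (ENSMUSG00000034533, chr9:119608456-119719322, minus) and Scn11a (ENSMUSG00000034115, chr9:119753759-119825456, minus) adjoin each other on chromosome 9. That chromosome also carries Scn2b (ENSMUSG00000070304, chr9:45117782-45130070, plus), its neighbour Scn4b (ENSMUSG00000046480, chr9:45138395-45154152, plus) and Scn3b (ENSMUSG00000049281, chr9:40269217-40291618, plus). Scn8a (ENSMUSG00000023033) spans chr15:100869858-101045938 on the plus strand. The antisense gene Gm13629 shares 180 exon bases with Scn9a. Whether reads were counted by strand is not given in the sources used here, so the Scn9a level may hold a few antisense reads. No other of the 8 genes shares exon bases with another annotated gene.

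Libraries correlated with Pearson r of 0.9717 to 0.9854 in the virus experiment and 0.9244 to 0.9664 in the sugar experiment, across genes on the log2(FPKM + 1) scale. Read counts were not part of the tables. The spacing of low values gave no clear steps in the virus experiment, where depth is unknown, and in the sugar experiment it gave relative depths of 1.00 to 1.34 for Vehicle and 0.760 to 0.899 for Ribose libraries. That estimate showed as a peak of at least 1.5 times the surrounding density in 13 of the 15 pairs of libraries. Transketolase checked the virus label: Tkt was 106, 101.7 and 98.1 FPKM in AAV-GFP and 223, 259 and 262 FPKM in AAV-TKT, and it rose by 1.27 on the log2 scale (SE 0.0843, limma adjusted p = 0.0054; 0.0512 without AAV-GFP replicate 1). All 8 of 8 neuronal markers, among them Uchl1 and Snap25, were present in every library, with a summed level of 4566 to 6237 FPKM over the 12 libraries. Markers of other cells were present too, at summed levels of 159 to 528 FPKM for satellite glia (5 of 5 listed) and 345 to 593 FPKM for Schwann cells (5 of 6 listed in the virus experiment, 6 of 6 in the other). Fibroblast (4 and 5 of 5 listed), macrophage (5 and 6 of 6) and endothelial markers (0 and 4 of 4) summed to at most 50.5, 46.1 and 8.55 FPKM in any library. In such bulk samples, fewer cells of a type and less RNA per cell cannot be told apart.

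Scn10a was the highest of the 8 genes in all 4 groups by mean level, and Scn2b and Scn3b were the lowest. In AAV-GFP the order was Scn10a (259 ± 17.3 FPKM, SD, n = 3), Scn4b (131 ± 8.19), Scn9a (109 ± 11.5), Scn11a (99.1 ± 16.8), Scn8a (56.4 ± 5.12), Scn1a (39.7 ± 4.22), Scn3b (19.96 ± 3.32) and Scn2b (15.1 ± 0.878). Only Scn9a and Scn11a overlapped as neighbours in that order. AAV-TKT kept the first 6 places, with Scn10a at 256 ± 13.3, Scn4b at 163 ± 17.7, Scn9a at 101.2 ± 2.22, Scn11a at 86.5 ± 4.66, Scn8a at 61.0 ± 1.97 and Scn1a at 42.7 ± 0.815 FPKM (SD, n = 3), and none of these 6 overlapped its neighbour. Scn2b (18.4 ± 2.10) and Scn3b (17.1 ± 0.856) overlapped at the bottom. Scn10a alone held 44.6% to 48.2% of the summed FPKM of the 5 alpha subunits in the libraries of the virus experiment.

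In the sugar experiment the spread was wider and most neighbours overlapped. The Vehicle means were 274 ± 103.5 FPKM for Scn10a, 120 ± 73.0 for Scn11a, 105.3 ± 39.5 for Scn4b, 91.4 ± 11.2 for Scn9a, 39.1 ± 15.4 for Scn8a, 29.1 ± 13.1 for Scn1a, 24.5 ± 7.40 for Scn3b and 17.04 ± 4.01 for Scn2b (SD, n = 3). The 4 highest genes overlapped in a chain and the 4 lowest did likewise, with a gap between Scn9a and Scn8a. The Ribose means were 254 ± 48.0 FPKM for Scn10a, 110 ± 22.6 for Scn4b, 103.5 ± 30.6 for Scn11a, 87.4 ± 6.67 for Scn9a, 41.0 ± 10.2 for Scn8a, 32.2 ± 10.9 for Scn1a, 27.0 ± 6.14 for Scn3b and 19.5 ± 2.37 for Scn2b (SD, n = 3). There Scn10a stood clear of the second gene, Scn9a of Scn8a, and Scn3b of Scn2b.

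**Figure D1:**
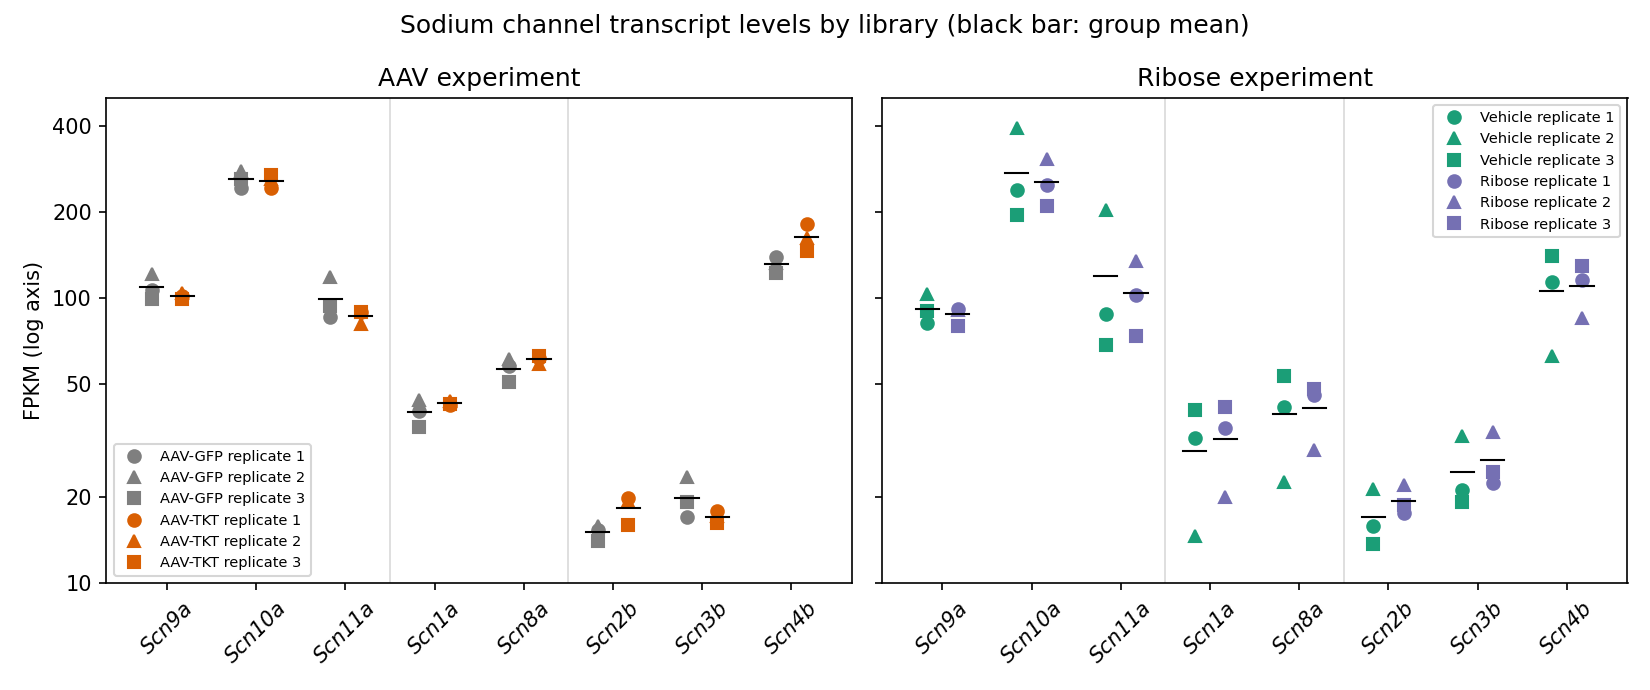
FPKM (log axis) of the 8 sodium channel genes in each of the 12 libraries, with the virus experiment on the left and the sugar experiment on the right; symbols mark the replicate, colours the group, and black bars the group means of 3 libraries. Scn10a is the highest gene in every group by mean, and the triangles of the sugar experiment (replicate 2) lie high for Scn10a and Scn11a and low for Scn1a, Scn8a and Scn4b.

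In the comparison of AAV-TKT with AAV-GFP, 0 of the 8 sodium channel genes passed the limma test at an adjusted p of 0.05, against 0.0152% of the 13178 genes tested. Without adjustment, 2 of 8 had a p under 0.05 (Scn4b and Scn2b), where 10.6% of all genes did. The signs were split, 4 higher and 4 lower, with a median log2 change of 0.05 over the 8 genes and 0.01 over all genes tested. The 3 nociceptor forms had negative values and both large-neuron forms positive ones. All changes below are on the log2(FPKM + 1) scale, with limma's moderated standard error and p.

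Scn10a, the tetrodotoxin-resistant channel that carries most of the nociceptor action potential upstroke, was at 242, 277 and 260 FPKM in AAV-GFP and 242, 259 and 268 FPKM in AAV-TKT. The groups overlapped throughout and differed by -0.02 (95% interval -0.21 to 0.17, limma adjusted p = 0.954), which puts the fold between 0.868 and 1.13. Its sign was positive in 3 of the 13 alternative settings, in which values ran from -0.11 to 0.06. Scn9a, whose channel amplifies small depolarisations at pain endings, was at 106, 121 and 98.7 FPKM in AAV-GFP and 101.1, 103.5 and 99.05 FPKM in AAV-TKT. The AAV-TKT libraries lay inside the AAV-GFP range, at a log2 difference of -0.10 (SE 0.0861, adjusted p = 0.685). Scn11a, whose channel passes a persistent current near rest, was at 85.6, 118 and 93.8 FPKM in AAV-GFP and 89.0, 81.1 and 89.3 FPKM in AAV-TKT. AAV-GFP replicate 2 was high and 1 AAV-TKT library was the lowest, with overlap between the groups and a log2 difference of -0.18 (SE 0.119, adjusted p = 0.591). Without AAV-GFP replicate 2 the 3 values were 0.03 for Scn10a, -0.02 for Scn9a and -0.05 for Scn11a.

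The large-neuron forms differed little. Scn1a was at 40.1, 43.7 and 35.3 FPKM in AAV-GFP and 42.1, 43.7 and 42.5 FPKM in AAV-TKT, a log2 difference of 0.11 (95% interval -0.09 to 0.31, limma adjusted p = 0.644). Scn8a, the main channel of mature nodes of Ranvier, was at 57.5, 60.8 and 50.8 FPKM in AAV-GFP and 61.4, 58.8 and 62.7 FPKM in AAV-TKT, a log2 difference of 0.11 (95% interval -0.08 to 0.30, adjusted p = 0.617). In both genes AAV-GFP replicate 3 was the lowest library, and the groups overlapped. Without it the values were 0.03 for Scn1a and 0.04 for Scn8a. The interval of each of the 5 alpha subunits held 0, and the widest of them, that of Scn11a, ran from -0.46 to 0.10.

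The beta subunits held the values farthest from 0. Scn4b was at 139, 132 and 123 FPKM in AAV-GFP and 181, 162 and 146 FPKM in AAV-TKT, so that every AAV-TKT library was above every AAV-GFP library. Its log2 difference was 0.30 (SE 0.0960, 95% interval 0.08 to 0.53), with an unadjusted p of 0.0146 and a limma adjusted p of 0.392. Scn2b, whose immunoglobulin-like subunit is linked to alpha subunits by a disulfide bond, was at 15.4, 15.8 and 14.1 FPKM in AAV-GFP and 19.8, 19.4 and 16.0 FPKM in AAV-TKT. These groups did not overlap either, at a log2 difference of 0.26 (SE 0.0978, 95% interval 0.03 to 0.49, unadjusted p = 0.0294, adjusted p = 0.43). Among all genes, 11.3% had every AAV-TKT library above every AAV-GFP library, 7.2% had every one below, and 18.5% were separated in either direction. Neither gene passed over all genes in any of the 13 alternative settings, in which the smallest adjusted p was 0.356 for Scn4b and 0.361 for Scn2b, and both stayed positive in those settings.

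Scn3b, a beta subunit that associates with its alpha subunits without a covalent bond, had the opposite sign. It was at 17.1, 23.6 and 19.2 FPKM in AAV-GFP and 18.0, 17.2 and 16.3 FPKM in AAV-TKT, with overlap and a log2 difference of -0.20 (SE 0.117, limma adjusted p = 0.551). Without AAV-GFP replicate 2, its highest library, the value was -0.08. The Scn3b level was 0.123, 0.178 and 0.157 of the Scn4b level in AAV-GFP and 0.0993, 0.106 and 0.112 of it in AAV-TKT, a description with no test in which the groups did not overlap. AAV-GFP replicate 2 was the highest of the 6 libraries for 5 of the 8 genes (Scn1a, Scn9a, Scn10a, Scn11a and Scn3b) and AAV-GFP replicate 3 the lowest for 5 (Scn1a, Scn8a, Scn9a, Scn2b and Scn4b).

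**Figure D2:**
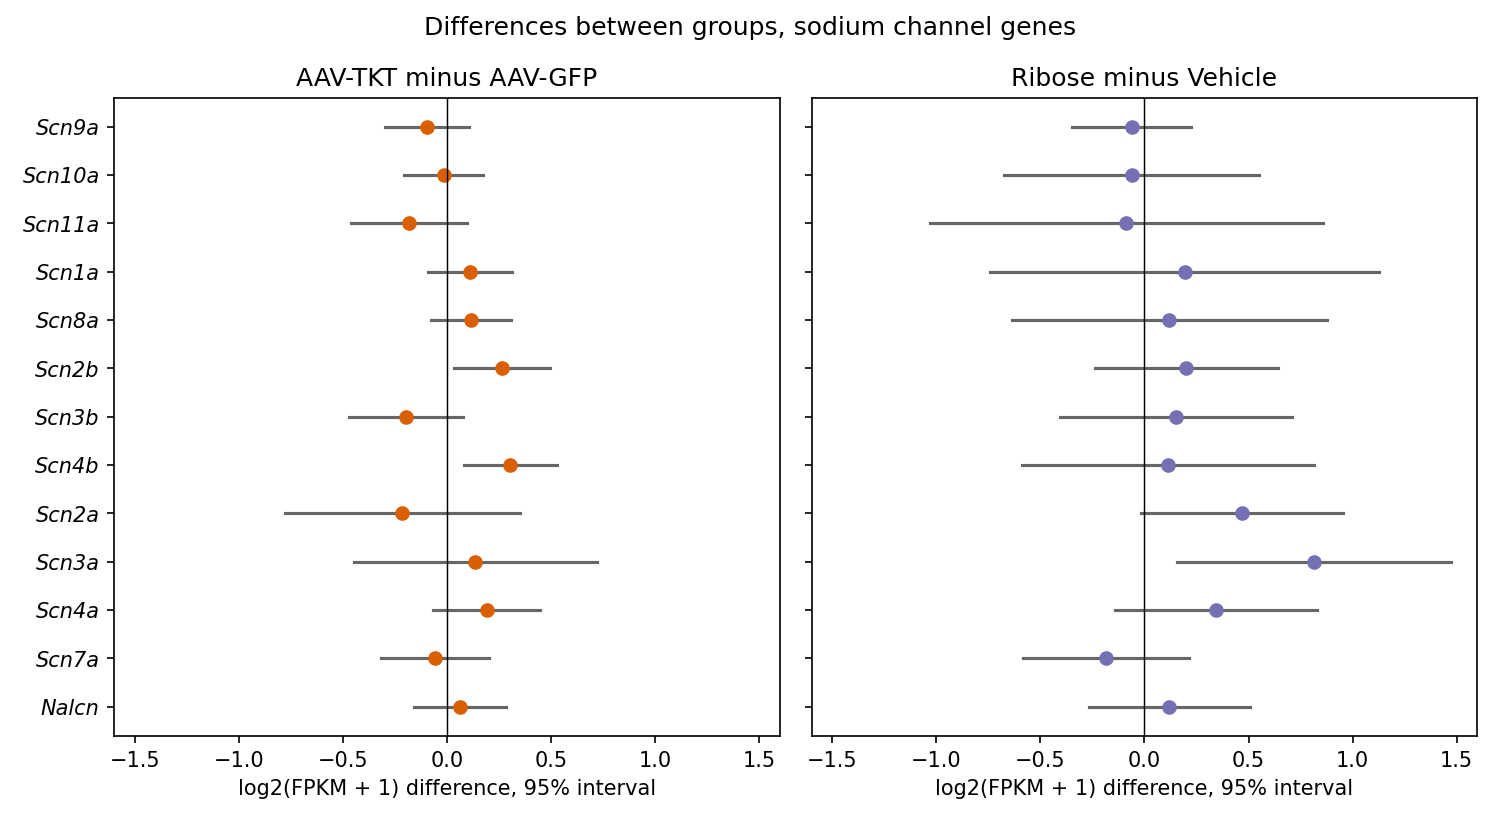
Differences in log2(FPKM + 1) between groups for the 8 sodium channel genes and 5 related genes, AAV-TKT minus AAV-GFP on the left and Ribose minus Vehicle on the right; points are limma estimates from 3 libraries per group and bars their 95% intervals. On the left, the intervals of Scn2b and Scn4b lie above 0 and those of the 5 alpha subunits among the 8 genes hold 0, and on the right the intervals of the 8 genes are wider and all hold 0.

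Marker genes of neurons, Schwann cells and blood cells went with the virus groups. The 8 pan-neuronal markers summed to 4566 to 5209 FPKM in AAV-GFP and 5302 to 6074 FPKM in AAV-TKT, with no overlap, and 7 of 8 were positive at a median log2 difference of 0.21. Of the 8, 3 were higher in every AAV-TKT library, while Syt1 was lower in every one (log2 difference -0.30), and 0 passed the limma test. The 5 Schwann cell markers measured summed to 410 to 435 FPKM in AAV-GFP and 345 to 375 FPKM in AAV-TKT, also with no overlap, and 5 of 5 were negative at a median of -0.32. The summed level of the 8 large-diameter neuron markers was 921 to 1042 FPKM in AAV-GFP and 1139 to 1302 FPKM in AAV-TKT, with no overlap, at a median log2 difference of 0.21 like that of the pan-neuronal markers. Of these 8 markers, 7 had positive values and 4 (Nefh, Pvalb, Slc17a7 and Asic1) were higher in every AAV-TKT library, while Ntrk2 was lower in every one, and 0 passed the limma test (adjusted p from 0.347 to 0.876). Over all genes, 11.3% were higher and 7.2% lower in every AAV-TKT library. Nefh, the heavy neurofilament of large axons, had a log2 difference of 0.31 and Pvalb, a calcium buffer of proprioceptors, one of 0.46. The 8 nociceptor markers summed to 2895 to 3038 FPKM in AAV-GFP and 2836 to 3749 FPKM in AAV-TKT, with 4 positive and 4 negative. Neutrophil markers (6 of 6 lower in every AAV-TKT library) summed to 89.3 to 241 FPKM in AAV-GFP and 18.5 to 28.8 FPKM in AAV-TKT, red-cell markers (5 of 5 lower in every AAV-TKT library) to 113 to 471 and 71.5 to 94.2 FPKM, and macrophage markers (3 of 5) to 33.6 to 46.1 and 12.3 to 18.0 FPKM. Lyz2 alone averaged 29.3 of the 39.0 FPKM of the macrophage sum in AAV-GFP and 9.34 of 16.1 FPKM in AAV-TKT. The macrophage markers C1qa and C1qb overlapped between the groups. No marker of these lists was at 0 in a virus library. Their part in the values of Scn4b, Scn2b and the other channels was not tested.

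The balance of nociceptor to large-neuron channels was followed within each library as the mean log2(FPKM + 1) of Scn9a, Scn10a and Scn11a minus that of Scn1a and Scn8a, a description with no test. It was 1.42, 1.60 and 1.64 in AAV-GFP and 1.33, 1.34 and 1.35 in AAV-TKT, so the groups did not overlap and their means differed by -0.21. AAV-GFP replicate 1 was closest to the AAV-TKT libraries. The level of Scn10a was 4.21, 4.55 and 5.11 times that of Scn8a in AAV-GFP and 3.94, 4.41 and 4.27 times in AAV-TKT, with overlap. In the sugar experiment the balance was 1.68, 3.40 and 1.18 in Vehicle and 1.70, 2.63 and 1.25 in Ribose. Replicate 2 of each group was the highest there, and the means of the groups differed by -0.23, or by 0.43 without Vehicle replicate 2.

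**Figure D3:**
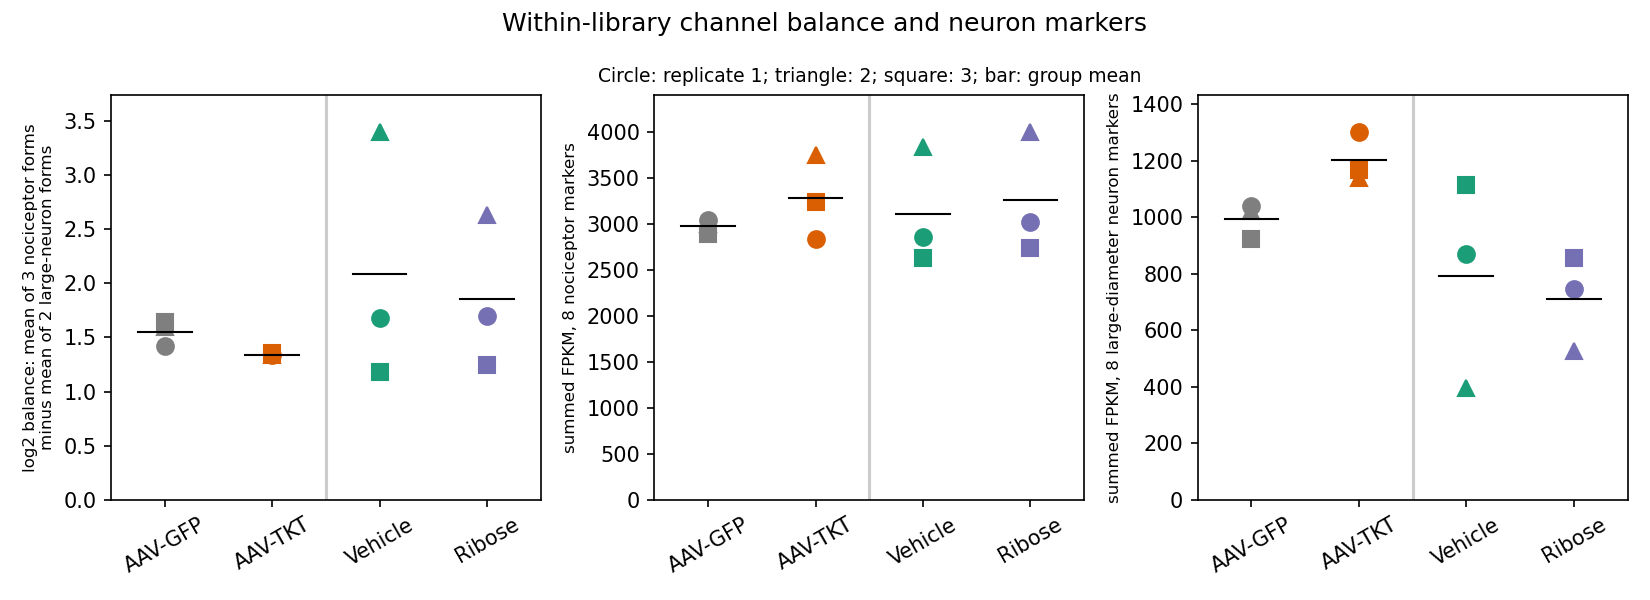
Within-library balance of nociceptor to large-neuron channels (left, log2 scale) beside the summed FPKM of 8 nociceptor markers (middle) and of 8 large-diameter neuron markers (right), with 1 point per library and bars at the group means. Vehicle and Ribose replicate 2 (triangles) have the highest balance and nociceptor sums and the lowest large-diameter sums of their groups, and AAV-TKT lies below AAV-GFP in balance and above it in large-diameter sums.

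In the comparison of Ribose with Vehicle, 0 of the 8 sodium channel genes passed the limma test, against 0.00724% of the 13804 genes tested, and 0 of 8 had an unadjusted p under 0.05, against 4.79% of all genes. Ribose and Vehicle libraries overlapped in all 8 genes, where 9.63% of all genes were separated in either direction (4.28% higher and 5.35% lower with ribose). The log2 differences ran from -0.09 to 0.20, with 5 positive and 3 negative, a median of 0.12 over the 8 genes and -0.02 over all genes, and a limma adjusted p of 0.9998 for each. The standard errors of the 8 genes had a median of 0.281 here and 0.0911 in the virus experiment, while over all genes the medians were 0.217 and 0.107. The 95% interval of Scn11a ran from -1.03 to 0.86 and that of Scn1a from -0.74 to 1.13, which as folds are 0.489 to 1.82 and 0.598 to 2.18.

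Replicate 2 of both groups stood apart in the sodium channels. Scn10a was at 237, 391 and 194 FPKM in Vehicle and 248, 305 and 210 FPKM in Ribose, and Scn11a at 87.4, 203 and 68.3 FPKM in Vehicle and 102.4, 135 and 73.4 FPKM in Ribose. For both genes replicate 2 was the highest library of its group. Scn9a was at 81.3, 103.4 and 89.6 FPKM in Vehicle and 91.6, 90.7 and 79.7 FPKM in Ribose, a narrower range. Scn1a was at 32.2, 14.7 and 40.3 FPKM in Vehicle and 35.1, 20.05 and 41.3 FPKM in Ribose, and Scn8a at 41.6, 22.6 and 53.0 FPKM in Vehicle and 45.7, 29.4 and 48.0 FPKM in Ribose. For both large-neuron forms replicate 2 was the lowest library of its group. Against the mean of replicates 1 and 3, Vehicle replicate 2 had 2.61 times the Scn11a level, 1.81 times the Scn10a level, 0.405 of the Scn1a level and 0.478 of the Scn8a level. Ribose replicate 2 had 1.53 times the Scn11a level, 1.33 times the Scn10a level, 0.525 of the Scn1a level and 0.627 of the Scn8a level.

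The beta subunits split along the same line. Scn4b was at 113, 62.4 and 140 FPKM in Vehicle and 115, 84.8 and 129 FPKM in Ribose, low in replicate 2 of both groups. Scn3b was at 21.2, 32.9 and 19.3 FPKM in Vehicle and 22.5, 34.0 and 24.5 FPKM in Ribose, and Scn2b at 15.9, 21.5 and 13.7 FPKM in Vehicle and 17.6, 22.2 and 18.8 FPKM in Ribose. Both were high in replicate 2 of both groups, so Scn4b was low there with Scn1a and Scn8a, and Scn2b and Scn3b high there with Scn10a and Scn11a. Scn9a was highest in replicate 2 in Vehicle, but in Ribose its replicate 1 was higher. The Scn3b level was 0.528 of the Scn4b level in Vehicle replicate 2 and 0.138 of it in Vehicle replicate 3.

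**Figure D4:**
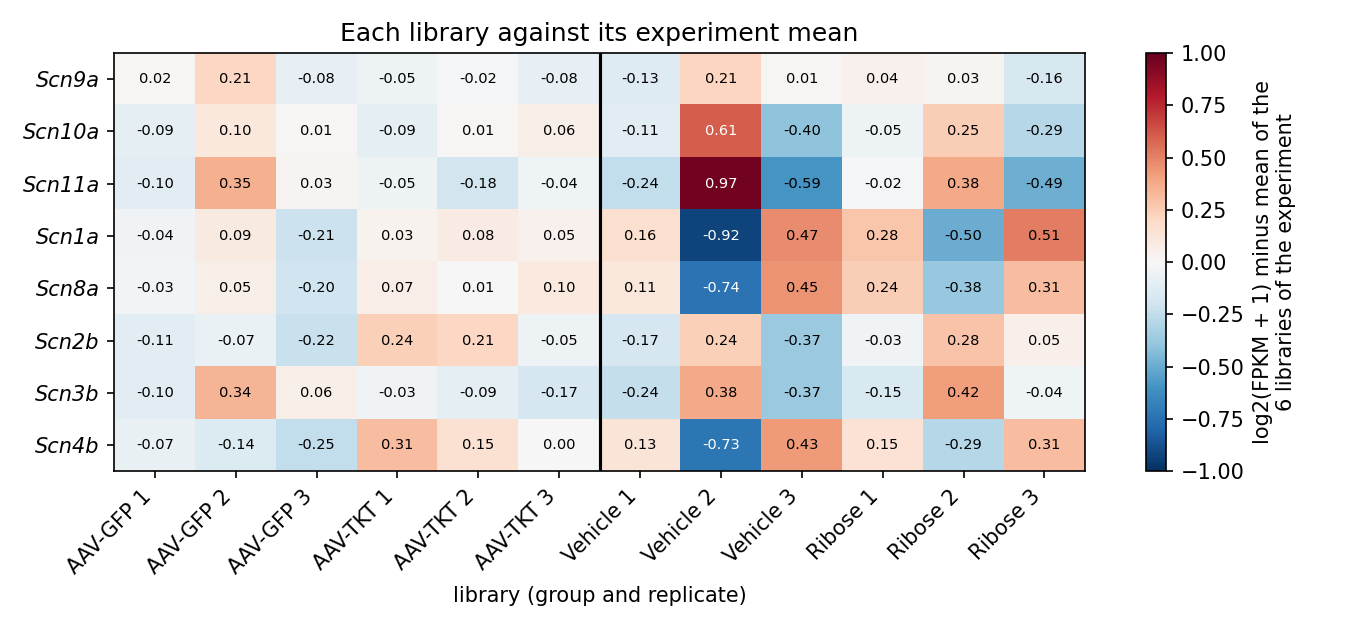
Level of each sodium channel gene in each library relative to the mean of the 6 libraries of its experiment, in log2(FPKM + 1) units (red above, blue below the mean). Vehicle 2 and Ribose 2 are above the mean for Scn10a, Scn11a, Scn2b and Scn3b and below it for Scn1a, Scn8a and Scn4b. Ribose 2 is nearer the mean than Vehicle 2 for these genes except Scn2b (0.28 against 0.24) and Scn3b (0.42 against 0.38). Among the virus libraries the value farthest from 0 is 0.35, for Scn11a in AAV-GFP 2.

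Marker genes set these libraries apart as well. All 8 nociceptor markers, such as Tac1 and Trpv1, were above both other libraries of the group in replicate 2 of Vehicle and of Ribose, with sums of 3836 and 4000 FPKM against 2632 to 3023 FPKM in the other sugar libraries. The large-diameter markers were below both others in 8 of 8 cases in Vehicle replicate 2 and in 6 of 8 in Ribose replicate 2, with sums of 394 and 528 FPKM against 746 to 1113 FPKM. The 5 satellite glia markers were lower in replicate 2 of both groups (261 and 159 FPKM in sum, 323 to 528 FPKM in the others). The 6 neutrophil markers were higher in Vehicle replicate 2 (153 FPKM in sum) and lower in Ribose replicate 2 (11.1 FPKM), and the 5 red-cell markers likewise (209 and 14.4 FPKM). Of the 6 macrophage markers, 4 were at 0 in at least 1 Ribose library. The relative depths of these libraries were 1.24 and 0.899, inside the range of their groups in the case of Vehicle and the highest of its group in the case of Ribose. The part of these differences in the channel values was not tested.

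Leaving out 1 library turned the sign of most of the Ribose values. Without Vehicle replicate 2 the log2 differences were -0.22 for Scn1a, -0.22 for Scn8a, -0.22 for Scn4b, 0.03 for Scn9a, 0.23 for Scn10a and 0.37 for Scn11a, each opposite in sign to the value over all 6 libraries, while Scn2b was at 0.37 and Scn3b at 0.38. With replicate 2 of both groups left out, which was chosen after seeing the data, the values of the alpha subunits were 0.09 for Scn10a, 0.17 for Scn11a, 0.0021 for Scn9a, 0.08 for Scn1a and -0.0034 for Scn8a. Those of the beta subunits were 0.28 for Scn2b, 0.21 for Scn3b and -0.05 for Scn4b. None of the 8 passed the limma test in either case, with adjusted p from 0.803 to 0.997. Scn2b stayed positive in all 14 alternative settings, from 0.07 to 0.37.

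The difference between the virus effect and the ribose effect was tested over the 12853 genes that are in both tables and pass the filter on low values, with each effect taken within its own table. It passed for 0 of the 8 sodium channel genes, against 0.00778% of all genes tested, and 0 of 8 had an unadjusted p under 0.05, against 6.85%. The value farthest from 0 was that of Scn3b, at -0.35 (SE 0.284, limma adjusted p = 0.884), from -0.20 with the virus and 0.15 with ribose. Scn4b followed at 0.19 (95% interval -0.57 to 0.95) and Scn11a at -0.10 (95% interval -1.12 to 0.93). The remaining 5 genes lay between -0.08 and 0.06. Over the 20 alternative settings the Scn3b difference stayed negative, from -0.58 without Vehicle replicate 2 to -0.18 without Ribose replicate 2. The other 7 turned in sign in 1 or more settings. That of Scn4b was -0.05 without Vehicle replicate 3 and 0.53 without Vehicle replicate 2, and that of Scn11a was 0.22 and -0.56 without the same libraries.

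Of the rest of the family, 5 genes were also read out, and 0 of 5 passed the limma test in either experiment. Scn7a, an atypical sodium-sensing form, was at 115 to 152 FPKM in the virus experiment and 70.6 to 114 FPKM in the sugar experiment, with log2 differences of -0.06 and -0.18, the first of which was 0.05 without AAV-GFP replicate 2. Nalcn, the sodium leak channel, had log2 differences of 0.06 and 0.12, the first of which was -0.03 without AAV-GFP replicate 3.

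Further alpha subunits were at low levels. Scn3a, the embryonic form known to return after nerve injury, was at 2.68, 1.74 and 0.971 FPKM in Vehicle and 3.48, 4.14 and 3.71 FPKM in Ribose. All Ribose libraries were above all Vehicle libraries, as in 4.28% of all genes, at a log2 difference of 0.82 (SE 0.281, unadjusted p = 0.0217, limma adjusted p = 0.976). In the virus experiment it was at 1.05, 2.21 and 1.28 FPKM in AAV-GFP and 2.65, 1.09 and 1.61 FPKM in AAV-TKT, a log2 difference of 0.14 with overlap and of -0.08 without AAV-TKT replicate 1. Scn4a, the skeletal muscle form, was higher in every treated library of both experiments, as were 11.3% (virus) and 4.28% (ribose) of all genes in each. Its log2 differences were 0.19 (limma unadjusted p = 0.125, adjusted p = 0.549) and 0.34 (unadjusted p = 0.14, adjusted p = 0.9998). Its levels were 1.93 to 2.40 FPKM in AAV-GFP, 2.48 to 2.59 in AAV-TKT, 1.96 to 2.26 in Vehicle and 2.76 to 3.08 in Ribose. Scn2a, a central form, was at 1.62 to 4.28 FPKM in the virus experiment and 4.63 to 9.52 FPKM in the sugar experiment, with log2 differences of -0.22 and 0.47. Its virus value was 0.01 without AAV-GFP replicate 3 and 0.06 with library weights.

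Genes whose products bind or anchor sodium channels were taken as a list of 16, of which 15 were listed in the virus experiment. None passed the limma test in either experiment. With AAV-TKT, 11 of 15 were positive, with a median log2 difference of 0.12 against 0.01 over all genes, and 4 were higher and 1 (Gldn, a nodal adhesion protein) lower in every AAV-TKT library, where 11.3% of all genes were higher and 7.2% lower in every one. Fgf11, a fibroblast growth factor homologue of the kind that binds channel tails, was at 7.38, 7.38 and 7.69 FPKM in AAV-GFP and 9.58, 10.1 and 9.88 FPKM in AAV-TKT. The groups were separated, at a log2 difference of 0.36 (SE 0.0714, unadjusted p = 0.00134, adjusted p = 0.324). Cntnap1, the axonal adhesion protein of paranodes, was at 60.7, 56.3 and 57.7 FPKM in AAV-GFP and 74.0, 66.9 and 67.3 FPKM in AAV-TKT, a log2 difference of 0.25 (unadjusted p = 0.00828, adjusted p = 0.378). Nfasc, the neurofascin that gathers channels at nodes, had a value of 0.24 (adjusted p = 0.436) and Dpysl2, a collapsin response mediator that affects Nav1.7 trafficking, one of 0.17 (adjusted p = 0.49).

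With ribose, 7 of the 16 partner genes were positive and 9 negative, with a median of -0.03 against -0.02 over all genes. The groups overlapped in all 16, where 9.63% of all genes were separated in either direction. The smallest p-values were those of Fgf14, another channel-tail binder (a log2 difference of 0.65), S100a10, the annexin partner that helps bring Nav1.8 to the membrane (-0.17), Sptbn4, the spectrin of initial segments and nodes (0.29), and Cntnap2 of juxtaparanodes (0.23). Cntnap2 was at 92.3 FPKM in Ribose replicate 1 against 44.1 and 64.9 FPKM in the other Ribose libraries, and without that library its value was -0.03. Each of the 16 had a limma adjusted p of 0.9998. Fgf14 ranged from 0.587 to 1.76 FPKM in Vehicle and from 1.22 to 3.19 FPKM in Ribose. Cntnap1 was at 59.5, 34.4 and 69.1 FPKM in Vehicle and 52.8, 37.1 and 59.1 FPKM in Ribose, low in replicate 2 of both groups.

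**Figure D5:**
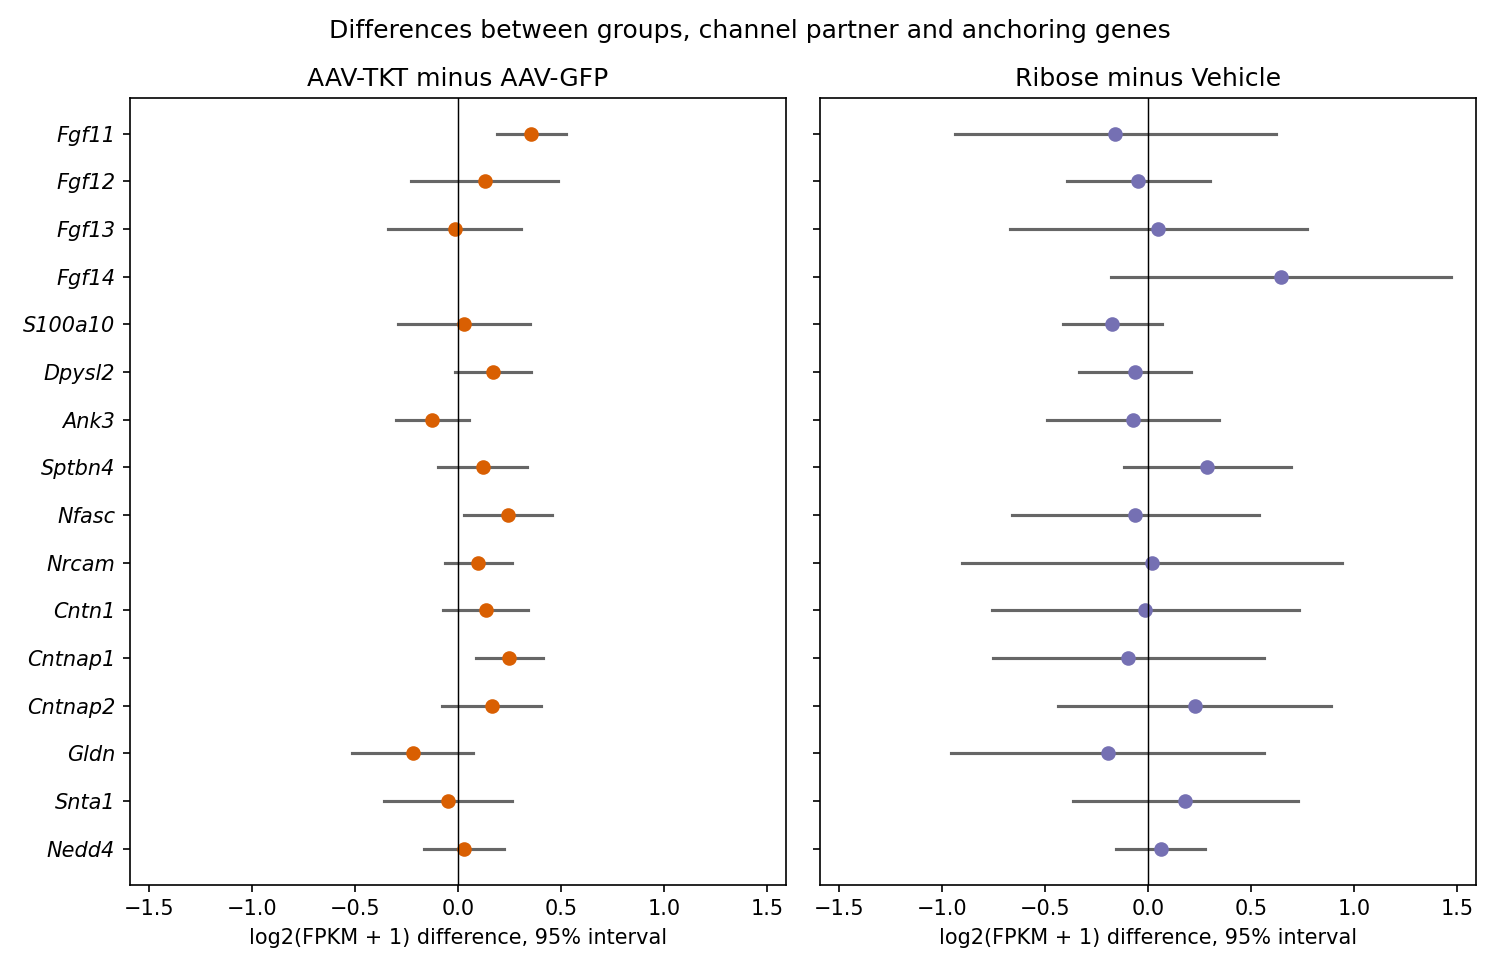
Differences in log2(FPKM + 1) between groups for 16 genes whose products bind, anchor or modify sodium channels, AAV-TKT minus AAV-GFP on the left (15 genes, Fgf14 not listed) and Ribose minus Vehicle on the right; points are limma estimates from 3 libraries per group and bars their 95% intervals. Fgf11, Cntnap1 and Nfasc lie above 0 on the left, and every interval on the right holds 0.

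Genes with a pattern most like that of Scn10a and Scn8a were sought over the 12 libraries, each gene centred on the mean of its experiment, by the root mean square difference in log2(FPKM + 1) among 8897 genes that averaged 5 FPKM or more in both tables. For Scn10a the nearest 5 were Gnao1 (0.0530), a neuronal G protein, Ube2ql1 (0.0625), Prkd1 (0.0626), the acid-sensing channel Asic2 (0.0650) and the adhesion molecule Cadm1 (0.0677), where the median over all genes was 0.275. For Scn8a they were Endod1 (0.0558), the potassium channel Kcna1 (0.0580), the protease Htra1 (0.0583), Slitrk3 (0.0636) and Cntn1 (0.0740), an axonal adhesion molecule of the partner list, with a median of 0.356. Scn1a was the gene of rank 14 and Scn4b that of rank 43 nearest Scn8a, and Scn3b that of rank 535 and Scn11a that of rank 771 nearest Scn10a. Scn9a and Scn2b were farther from Scn10a, at ranks 1251 and 1567. Scn10a and Scn8a were farthest from their mean in Vehicle replicate 2, at 0.61 and -0.74, so that this library weighs most in the measure.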

How the data were processed

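Each experiment came as 1 table of FPKM deposited by the authors, with a column per library. Per the submitters' processing notes, bcl2fastq 2.20, FastQC, Trim Galore and GRCm38 were used, and per the labels' protocols RNA was purified on micro columns and made into directional libraries. No aligner, counter, annotation or strand setting is named by the sources. Levels were compared only within a table, because the 2 tables were filtered and scaled separately. The control columns of the sugar table were taken as Vehicle by replicate number. Identifiers were matched to GENCODE M21 symbols (13170 of 13178 and 21612 of 21650).

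Groups were compared with limma 3.58.1 in R 4.3.3 on log2(FPKM + 1), with an intensity trend, over genes averaging 1 FPKM or more in the table. Benjamini-Hochberg adjustment ran over all genes tested, at a threshold of 0.05. With 3 libraries per group, an exact two-sided permutation test could not go below 0.1, so none is given. Relative depths were fitted to ratios of low values between libraries.

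Named were the 8 genes, 5 other family genes, the 4 partner genes of smallest p per experiment, Tkt, the 5 nearest genes to Scn10a and Scn8a, and up to 2 examples per marker list. A few items that the rule covers are not reported here. Additional genes named beside a count were chosen after their values were seen. The genes and lists were chosen with earlier results of these data known. Alternatives were a pseudocount of 0.1, no filter or a mean of 5 FPKM, median-of-ratios and quantile scaling, the replicate number as a block, library weights, and each library left out. In the virus comparison the run with no filter equalled the main run, because all 13178 listed genes passed the filter. The joint omission of Vehicle and Ribose replicate 2 was added after seeing the data.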

Additional observations from a re-analysis of the deposited data

Results flagged for a closer look

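Scn2a had differences of opposite sign in the experiments. The 3 AAV-TKT libraries lay below the AAV-GFP mean and the 3 Ribose libraries above the Vehicle mean. The virus effect minus the ribose effect was -0.68 on the log2(FPKM + 1) scale (95% interval -1.42 to 0.05, unadjusted p = 0.0662, limma adjusted p = 0.746), which did not pass over all 12853 genes tested. The virus value alone was -0.22 with overlapping groups, and it was positive, at 0.01, without AAV-GFP replicate 3 and, at 0.06, with library weights. The gene was low, with means of 2.65 FPKM in the virus experiment and 7.15 FPKM in the sugar experiment.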

How the results depend on the processing

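None of the 8 sodium channel genes passed the limma test in any comparison under any alternative run, and the Scn4b, Scn2b, Scn1a and Scn8a values of the virus comparison stayed positive throughout, as those of Scn9a, Scn11a and Scn3b stayed negative. The counts over all genes moved more. With the virus, 2 genes passed, and 5 with a pseudocount of 0.1, 4 at a mean of 5 FPKM or more, 23 with library weights, and 1 to 40 with 1 library left out (40 without AAV-GFP replicate 2, 5 without AAV-TKT replicate 2, 4 without AAV-GFP replicate 3, 1 without AAV-GFP replicate 1). With the replicate block 0 passed in limma, where 1592 had an unadjusted p under 0.05. With ribose 1 passed, and 1 to 4 with 1 library left out (4 without Ribose replicate 2, and 2 without Vehicle replicate 2, Vehicle replicate 3 or Ribose replicate 3), and 3 without Vehicle and Ribose replicate 2 together. For the difference of effects 1 passed, and 2 with a pseudocount of 0.1, 1 to 3 with 1 library left out (3 without Vehicle replicate 3 or Ribose replicate 2, 2 without Ribose replicate 3), and 12 without Vehicle and Ribose replicate 2 together. The cause of these moves was not tested. Tkt lost its call in the virus comparison with the replicate block (adjusted p = 0.0729) and without AAV-GFP replicate 1 (0.0512), at log2 changes of 1.27 and 1.30. Over the 13 alternatives its adjusted p ran from 0.000723 to 0.0729.

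In the virus experiment, deviations of same-numbered libraries correlated at 0.03, 0.07 and -0.01, inside the range of -0.10 to 0.08 for differently numbered ones. In the sugar experiment they correlated at 0.04, 0.36 and 0.16 for replicates 1, 2 and 3. Differently numbered libraries gave -0.26 to 0.14 there, below the values of replicates 2 and 3. Whether the replicate numbers mark a pairing was not tested. With the replicate block the ribose count and the difference count stayed at 1 each. Genes with an unadjusted limma p under 0.05 rose from 661 to 993 for ribose and from 880 to 1272 for the difference. The balance of nociceptor to large-neuron channels differed between groups by -0.28 to -0.17 (virus) and -0.68 to 0.43 (ribose) with 1 library left out. Depth is unknown in the virus libraries, and the standard errors of the 8 genes in the sugar experiment, up to 0.404, limit what could be detected there.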
